A study of Mus musculus with 6 samples.

Results

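The genes described here are the nuclear genes for subunits of the oxidative phosphorylation (OXPHOS) complexes, 86 of the 54331 genes that the deposited RNA-seq table lists. They were taken by symbol in GENCODE M21 (GRCm38), as protein-coding genes of the Nduf subunit series, *Sdha* to *Sdhd*, and the genes whose symbols begin with Uqcr, Cox4 to Cox8 or Atp5. The 86 genes carry 85 symbols, since *Atp5o* is listed under a second identifier. In the inner mitochondrial membrane, complex I oxidizes NADH and complex II oxidizes succinate, and both pass electrons to ubiquinone. Complex III moves them on to cytochrome c and complex IV to oxygen, and the proton gradient built on the way drives ATP synthesis by complex V. Most subunits are encoded in the nucleus and imported, and a small set is encoded by mitochondrial DNA. Pluripotent cells rely more on glycolysis than fibroblasts do, and the OXPHOS genes are therefore often examined during reprogramming.

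Mouse embryonic fibroblasts (MEFs) from pooled male E13.5 embryos of a mixed C57BL/6, DBA/2 and ICR background, all carrying an Oct4-EGFP transgene, were transduced with retroviral Oct4, Sox2 and Klf4 and with AKT-MER, a myristoylated AKT fused to a modified estrogen receptor that 4-hydroxytamoxifen (4OHT) activates. Cells of 1 transduced culture were split into wells at 3 days postinfection (dpi). The OSKA + 4OHT group (3 wells) received 1 µM 4OHT, and the OSKA − 4OHT group (3 wells) received the ethanol vehicle. RNA was taken at 10 dpi, with no cell sort described for these libraries, and in such bulk samples fewer cells of a type and less RNA per cell cannot be told apart. Both groups carry every transgene, and cells with 4OHT but without AKT-MER were not analysed here. The wells come from 1 experiment, so the p-values measure only the spread between wells.

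The values are TPM, transcript abundances that are corrected for length and add up to 1000000 in each well, so the sequencing depth is unknown. Between 15814 and 18230 genes were above 0 per library, the fewest in OSKA − 4OHT replicate 1. A value of 0 is given as listed, because 97 well expressed genes, out of 5708 whose median exceeded 20 TPM, also had a 0 in some library. All 10 fibroblast markers checked were detected and together held between 9913 and 11531 TPM in the OSKA − 4OHT wells and between 6402 and 7703 TPM in the OSKA + 4OHT wells, 4 of them called lower and 1, *Col3a1*, called higher. Of the 9 pluripotency markers tested, 4 (*Nanog*, *Zfp42*, *Dppa5a* and *Tdgf1*) were called higher. The summed level of 10 macrophage markers lay between 148 and 188 TPM without 4OHT and between 107 and 120 TPM with it, and those of the adipocyte and endothelial markers were at most 42.9 TPM in any well. Mitochondrially encoded genes took between 13.9% and 20.8% of all TPM, the most in OSKA + 4OHT replicate 3. The part of these shifts in the results below was not tested.

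The subunit genes as a whole were slightly higher in the OSKA + 4OHT wells, and 1 of them passed the test after adjustment. Their summed level was 12104, 13193 and 12756 TPM in replicates 1 to 3 without 4OHT and 15317, 15356 and 13332 TPM in replicates 1 to 3 with it. The groups did not overlap, but OSKA + 4OHT replicate 3 lay close to the highest OSKA − 4OHT well. As a share of the TPM outside mitochondrially encoded genes, the sum was 1.50%, 1.56% and 1.52% without 4OHT and 1.79%, 1.78% and 1.68% with it. Differences were fitted by limma-trend to log2(TPM + 0.5) values of the 15382 genes that averaged 1 TPM or more, and called means a p-value under 0.05 after Benjamini-Hochberg adjustment. Fold changes are on this log2 scale and are too small for low genes. Of the 86 genes, 82 were tested. *Cox7b2*, *Cox8b*, *Cox8c* and the second *Atp5o* entry were listed at 0 in every library, and 1 tested gene, *Cox6a2*, passed the filter only through the OSKA + 4OHT wells.

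Of the 82 tested subunit genes, 69 (84.1%) had a fitted log2 fold change above 0, against 59.3% of all tested genes. Their median was 0.23, and that of all tested genes was 0.14. In 24 subunit genes (29.3%) all wells with 4OHT were above all wells without it, against 18.1% of all tested genes, and in 2 (2.44%), *Cox7a2l* and *Ndufa4*, all wells with 4OHT were below, against 10.0%. An unadjusted p-value under 0.05 was found for 17 subunit genes with a higher level (20.7%, against 14.1% of all genes) and for 1 with a lower level (1.22%, against 7.18%), both from limma-trend. After Benjamini-Hochberg adjustment 1 subunit gene, *Ndufa3*, was called higher (1.22%), against 3.52% of all tested genes, and 0 were called lower, against 1.97%. No test of the whole group was made.

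The size of this lean depended on the scaling and on single wells. With each library scaled by a trimmed mean of its log ratios, the median of all genes moved from 0.14 to 0.03 and that of the subunit genes to 0.10. The distance between the medians was then 0.07, against 0.08 with the TPM as deposited. With this scaling 59 of the 82 were above 0, against 52.1% of all genes, and 14 (17.1%) were higher without overlap, against 14.3%. After quantile normalization 66 of the 82 were above 0, against 49.7% of all genes, and the median of the subunit genes was 0.21 above that of all genes. With 1 well left out, the distance between the medians ran from 0.05 without OSKA − 4OHT replicate 1 to 0.13 without OSKA − 4OHT replicate 2 and without OSKA + 4OHT replicate 3. Without the last of these, 49 of the 82 (59.8%) were higher without overlap, against 27.2% of all genes. Intervals were narrow enough to bound most differences. For 65 of the 82 genes the 95% interval of the log2 fold change lay within a 2-fold difference in both directions, and for 17 it reached beyond.

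**Figure D1:**
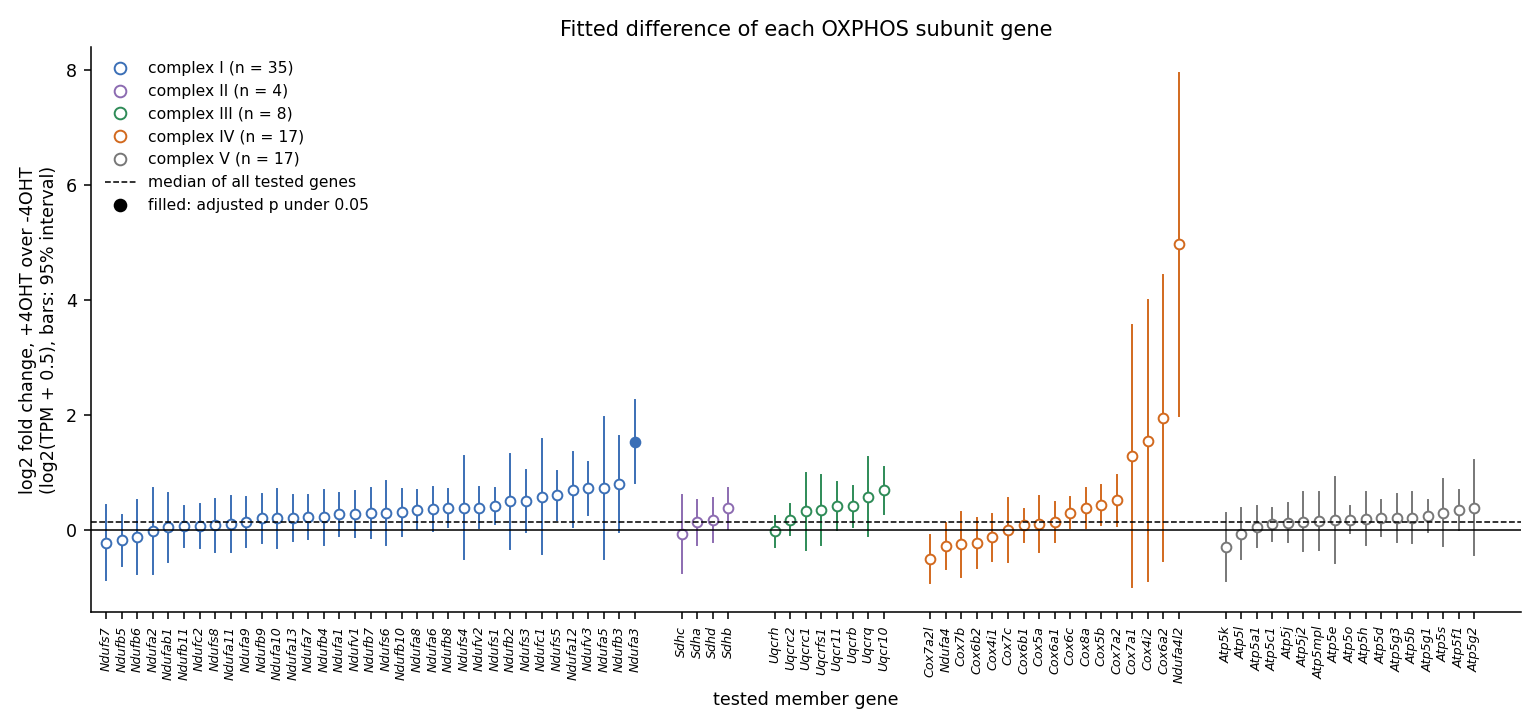
Fitted log2 fold change (vertical axis, log2(TPM + 0.5), OSKA + 4OHT over OSKA − 4OHT, n = 3 wells each) of 81 of the 82 tested subunit genes, ordered within each complex. Bars are 95% intervals, the dashed line is the median of all tested genes at 0.14, and the filled point, Ndufa3 at 1.54, is the gene with an adjusted p-value under 0.05.

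The complexes differed in how far their genes leaned, without a test of the difference between them. The median log2 fold change was 0.38 for the 8 genes of complex III, 0.30 for the 36 of complex I, 0.18 for the 17 tested genes of complex V, 0.16 for the 4 of complex II and 0.15 for the 17 tested genes of complex IV. The medians of complexes II, IV and V were thus within 0.04 of that of all genes, at 0.02, 0.01 and 0.04 above it, and those of complexes I and III were 0.15 and 0.24 above it. The median of complex II rests on 4 genes and ran from 0.06 without OSKA − 4OHT replicate 1 to 0.27 without OSKA − 4OHT replicate 3 or OSKA + 4OHT replicate 3, and that of complex IV from 0.09 without OSKA − 4OHT replicate 3 to 0.30 without OSKA + 4OHT replicate 3. After trimmed-mean scaling the distances of complexes I and III from all genes were 0.14 and 0.23. The order of the complexes depended on the scaling, since after quantile normalization the distances were 0.21 for complex I, 0.10 for complex II, 0.31 for complex III, 0.22 for complex IV and 0.14 for complex V. In each well the level of a complex was taken as the median over its genes of the deviation from the gene's mean over the 6 wells. For complex I it was -0.28, -0.07 and -0.05 in OSKA − 4OHT replicates 1 to 3 and 0.22, 0.19 and 0.05 in OSKA + 4OHT replicates 1 to 3. For complex III it was -0.38, -0.06 and -0.20 without 4OHT and 0.28, 0.25 and 0.07 with it. For complex IV it was -0.14, -0.05 and -0.08 without 4OHT and 0.17, 0.24 and 0.01 with it. The groups of wells were apart for these 3 complexes, and OSKA + 4OHT replicate 3 was the OSKA + 4OHT well nearest to the other group. Without its tissue- or condition-restricted isoforms, complex IV was at -0.13, -0.02 and -0.07 without 4OHT and 0.14, 0.15 and -0.07 with it. Its groups then overlapped. For complex II the levels were -0.29, -0.08 and 0.05 without 4OHT and 0.19, 0.23 and -0.08 with it. For complex V they were -0.07, 0.01 and -0.15 and 0.12, 0.21 and -0.08, and the groups overlapped for both.

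**Figure D2:**
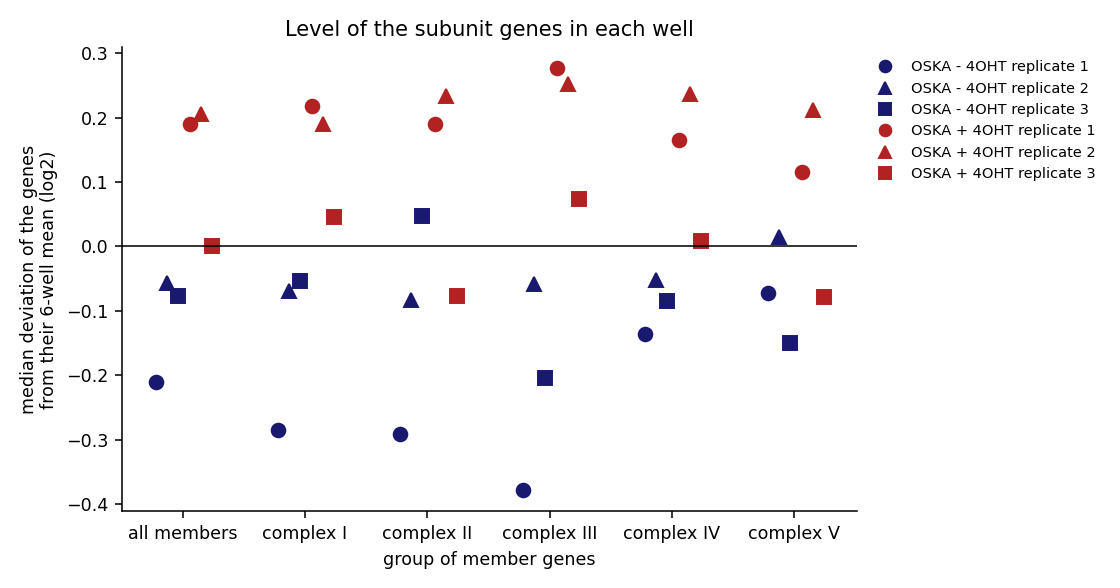
Median deviation of the subunit genes from their mean over 6 wells (vertical axis, log2) in each well, for all tested genes and for each complex. OSKA + 4OHT replicate 3 sits at 0.00 for all genes, below the other OSKA + 4OHT wells at 0.19 and 0.21 and above the OSKA − 4OHT wells, which lie from -0.21 to -0.06.

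The promoters of these genes are known for binding sites of nuclear respiratory factor 1 (NRF1), of GA-binding protein (GABP, an ETS factor) and of YY1. RefSeq promoter windows (GRCm38.p6, 250 bases before and 50 after the start) were matched for 69 of the 85 symbols and searched on both strands for 7 motifs. The NRF1 core CGCATGCG was present in windows of 9 genes (13.0%, against 2.77% of 17492 protein-coding genes and 2.07% of all 27025 genes with a window), the ETS motif CCGGAAG in 16 (23.2%, against 12.9% and 9.93%) and the YY1 motif AAGATGGCG in 7 (10.1%, against 2.14% and 1.64%). The motif TCAAGGTCA of the estrogen-related receptors was found in 2 (2.90%, against 0.377% and 0.466%), the SP1 motif GGGCGG in 29 (42.0%, against 49.2% and 38.2%), the hypoxia response core ACGTG in 18 (26.1%, against 23.2% and 21.8%) and the E-box CACGTG, which contains that core, in 6 (8.70%, against 8.91% and 8.09%). The NRF1, ETS, YY1 and ERR motifs were thus more frequent in these windows than in those of coding genes at large. Of the 19 subunit genes with a window that were higher without overlap, 1 held the NRF1 core, 3 the ETS motif, 0 the YY1 motif and 10 the SP1 motif, and of the other 48 tested genes with a window 8, 13, 7 and 18 did. The E-box was in 2 of the 19 and 4 of the 48, and the hypoxia response core in 5 and 12. The counts are small and were not tested. A match is a description of the letters and does not show a site.

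The 250 bases before the start are shown for 4 genes, *Ndufa3* as the subunit gene that was called, *Cox7a2l* as the lowest one, and *Cox6a1* and *Atp5j* as examples with the NRF1, ETS or YY1 motifs. Sequences are 5′ to 3′ on the strand of the gene, with the motifs above in capitals on either strand.
Ndufa3: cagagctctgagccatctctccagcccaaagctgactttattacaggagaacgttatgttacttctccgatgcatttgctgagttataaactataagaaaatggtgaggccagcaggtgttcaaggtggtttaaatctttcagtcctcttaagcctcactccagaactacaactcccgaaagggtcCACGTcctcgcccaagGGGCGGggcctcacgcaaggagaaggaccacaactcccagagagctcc
Cox7a2l: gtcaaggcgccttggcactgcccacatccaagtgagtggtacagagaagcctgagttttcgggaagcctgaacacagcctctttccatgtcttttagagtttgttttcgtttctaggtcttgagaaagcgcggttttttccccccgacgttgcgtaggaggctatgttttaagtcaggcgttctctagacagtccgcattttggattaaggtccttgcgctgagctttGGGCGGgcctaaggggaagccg
Cox6a1: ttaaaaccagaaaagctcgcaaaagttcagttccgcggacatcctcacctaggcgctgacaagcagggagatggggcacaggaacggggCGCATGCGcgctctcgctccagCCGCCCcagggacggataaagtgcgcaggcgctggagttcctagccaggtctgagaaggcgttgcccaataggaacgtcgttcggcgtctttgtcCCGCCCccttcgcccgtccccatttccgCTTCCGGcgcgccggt
Atp5j: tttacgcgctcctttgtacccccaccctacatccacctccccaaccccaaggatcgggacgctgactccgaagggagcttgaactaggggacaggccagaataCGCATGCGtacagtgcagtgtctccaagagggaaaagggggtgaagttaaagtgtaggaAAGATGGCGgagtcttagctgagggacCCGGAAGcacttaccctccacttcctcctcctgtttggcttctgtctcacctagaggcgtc
The window of *Ndufa3* (chr7:3617123-3617372, plus strand) holds the hypoxia response core at bases -64 to -60, on the opposite strand, and the SP1 motif at -48 to -43, counted back from the start. That of *Cox7a2l* (chr17:83514334-83514583, minus strand) holds the SP1 motif alone, at -22 to -17. That of *Cox6a1* (chr5:115348959-115349208, minus strand) holds the NRF1 core at -161 to -154, the ETS motif at -16 to -10 and the SP1 motif at -139 to -134 and at -44 to -39. That of *Atp5j*, 1 of 2 windows of this gene (chr16:84834977-84835226, minus strand), holds the NRF1 core at -147 to -140, the YY1 motif at -88 to -80 and the ETS motif at -61 to -55. The other *Atp5j* window (chr16:84835626-84835875), next to the 5′ end of the annotated gene at 84835625, holds the SP1 motif alone, at -88 to -83. The printed windows of *Atp5j* and *Cox7a2l* lie inside the annotated genes, before internal starts. The 5′ end of *Cox7a2l* is at 83517330. The levels of *Cox6a1* and *Atp5j*, shown as examples with the NRF1, ETS or YY1 motifs, overlapped between the groups. *Cox6a1* was at 318.6, 314.2 and 256.5 TPM without 4OHT and 369.7, 326.8 and 290.3 TPM with it, and *Atp5j* at 215.7, 246.0 and 180.8 TPM and at 240.8, 233.3 and 223.4 TPM.

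**Figure D3:**
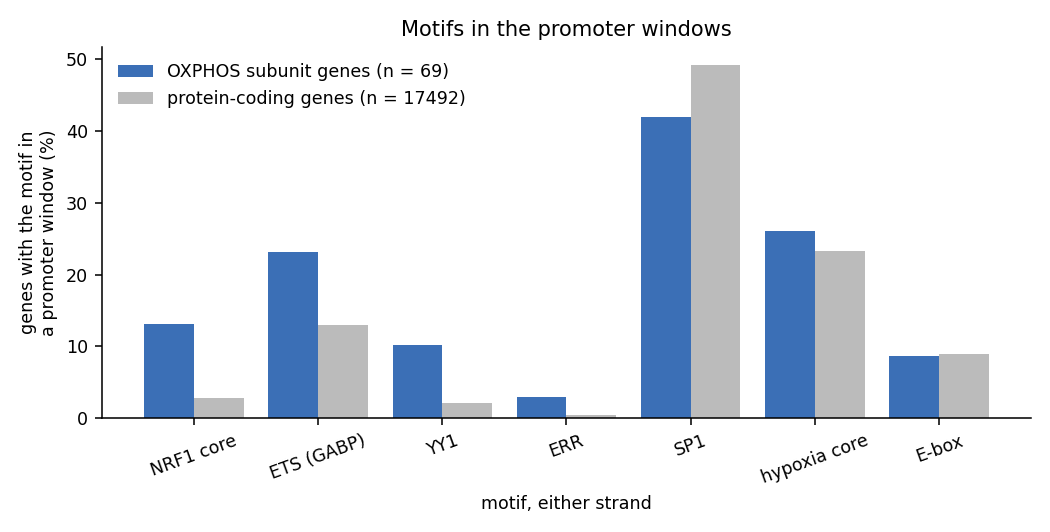
Share of genes (vertical axis, %) with each motif in a promoter window of 300 bases on either strand, for 69 OXPHOS subunit genes and 17492 protein-coding genes. The NRF1 core (13.0% against 2.77%) and the YY1 motif (10.1% against 2.14%) show the largest ratios among those of the 7 motifs found in more than 2 subunit genes. The NRF1 and YY1 motifs are forms shortened after the windows were opened. The E-box (8.70% against 8.91%) is alike in both sets of genes.

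Complex I, the NADH dehydrogenase, held the subunit gene that was called. Of its 36 genes, all tested, 32 were above 0, 13 were higher without overlap (36.1%, against 18.1% of all tested genes) and 0 were lower without overlap (against 10.0%). Its summed level was 3156, 3660 and 3669 TPM without 4OHT and 4585, 4583 and 4220 TPM with it. The 7 nuclear core subunits, which carry the flavin and the iron-sulfur clusters, had a median of 0.31, and the 29 accessory subunits, which surround and stabilize the core, had 0.29. The medians of both classes were alike. By limma-trend, 8 of the 36 genes had an unadjusted p-value under 0.05, all higher with 4OHT, against 14.1% of all tested genes.

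*Ndufa3* encodes a small accessory subunit of the membrane arm, and its gene lies on chromosome 7 (GRCm38, 3617373 to 3620327). It was at 123.0, 92.4 and 146.1 TPM without 4OHT and at 230.1, 386.0 and 466.3 TPM with it. The groups were well apart, with a mean of 120.5 ± 27.0 TPM without 4OHT and 360.8 ± 120.1 TPM with it (SD, n = 3 each). *Ndufa3* rose by a log2 fold change of 1.54 (SE 0.30, adjusted p = 0.0400, limma-trend with Benjamini-Hochberg adjustment), the only subunit gene both called and past a 2-fold difference. The call was close to the threshold. The adjusted p was between 0.0544 and 0.168 in the 6 fits that left out 1 well and 0.0622 after trimmed-mean scaling by the same test, while the log2 fold change stayed between 1.33 and 1.84. The gene has 6 annotated transcripts of 136 to 782 bases, and a value per transcript length depends on the transcript to which short reads were assigned.

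Among the core subunits, *Ndufs1*, the largest core subunit, was at 73.9, 63.5 and 64.4 TPM without 4OHT and at 90.6, 91.8 and 87.2 TPM with it. The wells of each group were close together here, and the log2 fold change was 0.42 (SE 0.13, adjusted p = 0.126, limma-trend with Benjamini-Hochberg adjustment). *Ndufv2*, an iron-sulfur subunit next to the NADH site, was at 105.3, 122.7 and 137.5 TPM and at 149.5, 177.1 and 152.6 TPM. The core subunit with the lowest fold change, *Ndufs7*, was at 58.1, 45.7 and 52.3 TPM without 4OHT and at 65.8, 39.6 and 33.6 TPM with it (log2 fold change -0.22, 95% interval -0.87 to 0.44), and the groups overlapped. Of the 7 core subunits, *Ndufs1*, *Ndufs3*, *Ndufv1* and *Ndufv2* were higher without overlap, over few genes and against 18.1% of all tested genes.

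Among the accessory subunits, *Ndufb3* had the second highest fold change after *Ndufa3*. It was at 23.2, 54.5 and 50 TPM without 4OHT and at 57.3, 73.2 and 81.5 TPM with it (log2 fold change 0.80, SE 0.35, adjusted p = 0.256, limma-trend with Benjamini-Hochberg adjustment). OSKA − 4OHT replicate 1 was the lowest well by far, and the size and rank of the fold change depend on it. *Ndufv3* was at 64.8, 70.8 and 95.6 TPM and at 147.2, 113.1 and 120.1 TPM (log2 fold change 0.73, adjusted p = 0.0909, same test). *Ndufs5* was at 94.8, 116.0 and 104.4 TPM and at 140.7, 145.8 and 197.5 TPM (log2 fold change 0.60, adjusted p = 0.110, same test). In these 3 genes every OSKA + 4OHT well was the higher, but none passed the threshold. The lowest accessory subunit, *Ndufb5*, was at 96.1, 112.3 and 131.0 TPM and at 118.1, 84.1 and 98.5 TPM (log2 fold change -0.18), with overlap. *Ndufs1*, *Ndufv2*, *Ndufv3* and *Ndufs5* were chosen for naming after their values were seen, as were *Ndufs3* and *Ndufv1*.

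Complex II, succinate dehydrogenase, has 4 subunits, all nuclear, and it is also an enzyme of the tricarboxylic acid (TCA) cycle. *Sdha*, the flavoprotein that binds succinate, was at 119.3, 143.4 and 172.9 TPM without 4OHT and at 167.5, 159.2 and 148.6 TPM with it, with overlap (log2 fold change 0.14). *Sdhb*, the iron-sulfur subunit, was at 59.0, 65.8 and 78.0 TPM and at 87.7, 91.0 and 83.8 TPM, and it was the one subunit of the complex without overlap (log2 fold change 0.38, SE 0.15, adjusted p = 0.215, limma-trend with Benjamini-Hochberg adjustment). The membrane anchor *Sdhd* was at 82.7, 91.9 and 103.2 TPM and at 111.8, 114.7 and 89.5 TPM (log2 fold change 0.18). The other anchor, *Sdhc*, was at 268.4, 338.8 and 273.9 TPM and at 343.4, 353.2 and 180.0 TPM. OSKA + 4OHT replicate 3 was the lowest of all 6 wells for *Sdhc*, and the sign of its fold change turned with the well left out, from -0.06 with all wells to 0.25 without that well. By limma-trend 0 subunits of complex II were called in either direction (against 3.52% of all tested genes higher and 1.97% lower), 1 had an unadjusted p under 0.05 and a higher level (against 14.1%), and the summed level of the complex overlapped between the groups.

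Complex III, the cytochrome bc1 complex, had the highest median of the complexes, although 0 of its genes were called and 2 had an unadjusted p under 0.05 and a higher level (limma-trend, against 14.1% of all tested genes). Of its 8 genes, 7 were above 0 and 3 were higher without overlap (37.5%, against 18.1%, over few genes), and its summed level was 1034, 1198 and 1087 TPM without 4OHT and 1474, 1502 and 1285 TPM with it. *Uqcr10*, a small membrane subunit, was at 108.6, 135.3 and 105.1 TPM without 4OHT and at 209.1, 201.3 and 156.7 TPM with it. The groups did not overlap, with a log2 fold change of 0.70 (SE 0.17, adjusted p = 0.0715, limma-trend with Benjamini-Hochberg adjustment). It fell under the threshold, at 0.0497 by the same test, where TPM were rescaled without the mitochondrially encoded genes, a setting added after the data were seen. *Uqcrq*, the ubiquinone-binding protein, was at 137.3, 170.0 and 154.3 TPM and at 242.8, 331.5 and 151.7 TPM, so that OSKA + 4OHT replicate 3 was within the other group (log2 fold change 0.59). *Uqcrc2*, a core protein, was at 114.8, 106.4 and 106.6 TPM and at 120.6, 124.7 and 126.4 TPM, a small difference between tight groups (log2 fold change 0.18, 95% interval -0.09 to 0.45). *Uqcrh*, the acidic hinge protein that contacts cytochrome c1, had the highest level of the complex and the lowest fold change. It was at 260.1, 273.3 and 271.0 TPM without 4OHT and at 282.0, 236.1 and 277.1 TPM with it (log2 fold change -0.02, 95% interval -0.30 to 0.25). Cytochrome c1 itself (*Cyc1*) is a catalytic subunit that the choice by symbol leaves out and was added after its values were seen. It was at 81.4, 70.3 and 91.4 TPM and at 165.2, 139.0 and 119.3 TPM (log2 fold change 0.79, SE 0.17, adjusted p = 0.0554, same test), without overlap. *Usmg5*, a subunit of complex V, is likewise left out by symbol and was added after its values were seen. *Usmg5* was at 412.9, 414.1 and 394.7 TPM without 4OHT and at 448.2, 461.9 and 508.5 TPM with it. Its log2 fold change was 0.21 (adjusted p = 0.276, same test), without overlap.

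For complex IV, cytochrome c oxidase, the symbols give 20 genes, with *Ndufa4* and *Ndufa4l2* counted here, because the NDUFA4 protein is now placed in complex IV. Of the 17 tested genes, 12 were above 0 and 5 below, 5 were higher without overlap (against 18.1% of all tested genes) and 2 lower (against 10.0%), 0 were called, 5 higher and 1 lower had an unadjusted p under 0.05 (limma-trend, against 14.1% and 7.18%), and the fitted log2 fold changes ranged from -0.50 to 4.97. The summed level of the complex was 3566, 3568 and 3556 TPM without 4OHT and 3961, 3826 and 3492 TPM with it, with overlap. The 11 widely expressed subunits had a median of 0.10, under that of all genes. *Cox4i1*, the regulatory subunit that binds ATP, was at 343.8, 432.3 and 507.0 TPM without 4OHT and at 437.4, 360.3 and 372.0 TPM with it (log2 fold change -0.12). *Cox7b* had the highest mean level of the complex, at 759.5, 452.6 and 471.7 TPM and at 473.2, 385.0 and 530.8 TPM, with 1 high well in the OSKA − 4OHT group. *Cox6b1*, which helps to join the dimer, was at 350.3, 347.8 and 350.7 TPM and at 334.8, 361.0 and 424.8 TPM. The groups of all 3 genes overlapped. *Cox8a* was at 263.6, 349.5 and 350.7 TPM and at 431.2, 429.5 and 392.0 TPM (log2 fold change 0.39, adjusted p = 0.188, limma-trend with Benjamini-Hochberg adjustment), without overlap.

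The largest fitted difference of all tested subunit genes was that of an isoform of complex IV. NDUFA4L2 is a relative of NDUFA4 that is known as a target of hypoxia-inducible factor and is held to lower complex I activity. *Ndufa4l2* (chromosome 10, 127514967 to 127517154) was at 20.3, 2.19 and 0 TPM (listed) without 4OHT and at 101.3, 90.5 and 92.4 TPM with it. The wells with 4OHT were alike and far above all 3 wells without it, which spread widely. The fitted log2 fold change was 4.97 (SE 1.24, adjusted p = 0.0744, limma-trend with Benjamini-Hochberg adjustment), so the gene was not called. Its size and its call depend on the low wells. It was 4.08 with a pseudocount of 2 (adjusted p = 0.0484) and 6.36 without OSKA − 4OHT replicate 1 (adjusted p = 0.0387), both by the same test and both under the threshold, and over all alternatives the adjusted p ranged from 0.0387 to 0.243. *Ndufa4* (chromosome 6, 11900292 to 11907497) was at 335.5, 343.4 and 321.5 TPM without 4OHT and at 311.1, 309.7 and 217.5 TPM with it. It was lower without overlap by a small margin (log2 fold change -0.27, SE 0.16, adjusted p = 0.401, same test). *Ndufa4l2* made up 5.70%, 0.633% and 0% of the TPM of the pair without 4OHT and 24.6%, 22.6% and 29.8% with it, a mean of 2.11% ± 3.12 against 25.7% ± 3.72 (SD, n = 3 each). By an exact 2-sided permutation test p was 0.1, the smallest that 3 wells against 3 can give, and 0.9 after Benjamini-Hochberg adjustment over the 9 isoform shares tested.

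**Figure D4:**
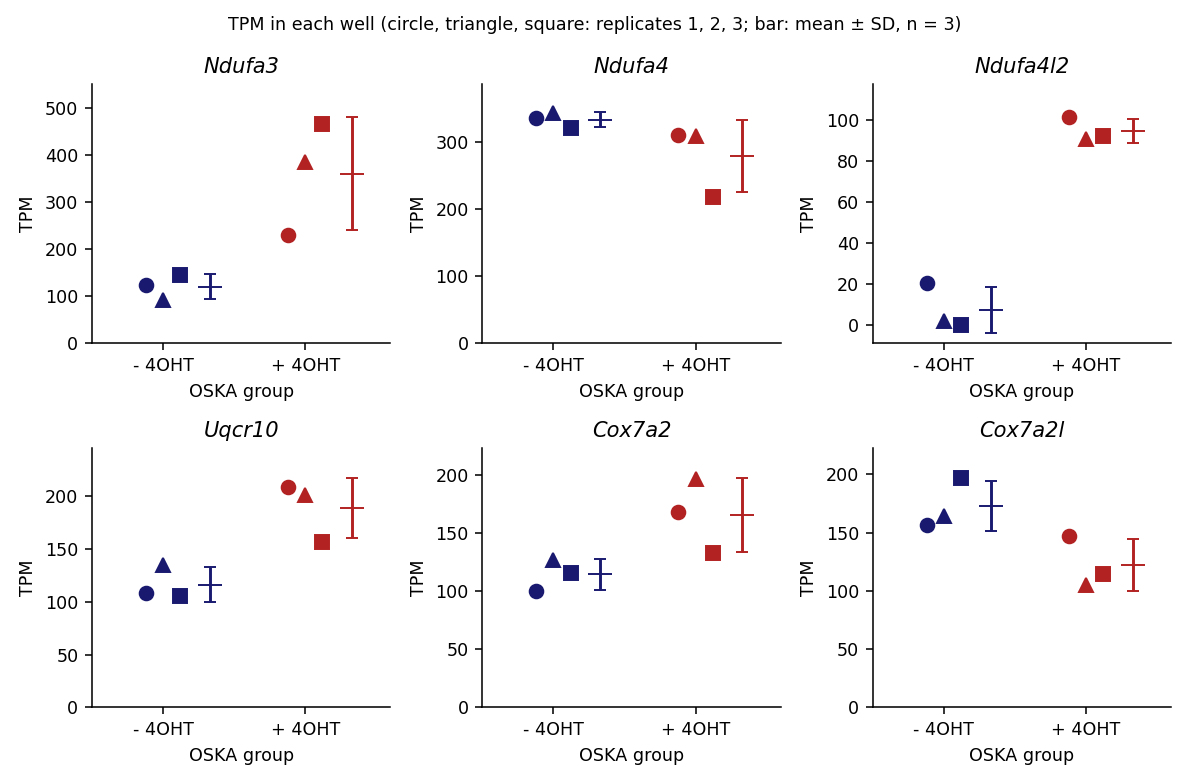
TPM (vertical axis, linear) in each well of both OSKA groups for 6 subunit genes, with the mean and SD of 3 wells as bars. The OSKA + 4OHT wells of Ndufa4l2 lie between 90.5 and 101.3 TPM and the OSKA − 4OHT wells at 20.3 TPM or less, while Cox7a2 and Cox7a2l lie in opposite order.

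The other restricted isoforms of complex IV stayed low. *Cox4i2*, an isoform of lung and of low oxygen, was at 0, 1.31 and 8.58 TPM without 4OHT and at 7.38, 4.00 and 5.41 TPM with it, between 0% and 1.66% of the Cox4 pair. *Cox7a1*, of heart and muscle, was at 0, 3.56 and 5.65 TPM and at 5.81, 3.64 and 6.55 TPM. *Cox6a2*, also of heart and muscle, was listed at 0 in all wells without 4OHT and at 0, 2.95 and 3.69 TPM with it. Levels this low do not separate the groups, and the wide intervals of these genes leave their direction undetermined. The testis isoform *Cox6b2*, in contrast, was at 79.2, 100.7 and 71.7 TPM without 4OHT and at 74.8, 77.6 and 61.6 TPM with it, or 19.3% ± 2.84 and 16.2% ± 3.08 (SD, n = 3 each) of the Cox6b pair (exact 2-sided permutation p = 0.4, adjusted 0.9 over the 9 shares). The 10 striated muscle markers together held at most 23.1 TPM in any well.

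*Cox7a2* and *Cox7a2l*, which encode related proteins, lay in opposite order. *Cox7a2*, the widely expressed subunit, was at 100.6, 127.2 and 115.9 TPM without 4OHT and at 168.0, 196.5 and 132.5 TPM with it (log2 fold change 0.52, SE 0.18, adjusted p = 0.174, limma-trend with Benjamini-Hochberg adjustment). *Cox7a2l* (chromosome 17, 83501918 to 83517330), known as SCAF1 for its role in joining complexes III and IV into supercomplexes, was at 156.5, 164.2 and 197.1 TPM and at 147.3, 104.6 and 114.8 TPM. Its log2 fold change was the lowest of all tested subunit genes, -0.50 (SE 0.17, adjusted p = 0.165, same test), without overlap. Neither gene was called under any alternative.

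The median of complex V, the ATP synthase, was 0.04 above that of all genes, and 0.14 above it after quantile normalization. By limma-trend 0 of its genes were called (against 3.52% of all tested genes called higher and 1.97% lower). An unadjusted p under 0.05 and a higher level were found for 1 by limma-trend, against 14.1%. Of its 17 tested genes, 15 were above 0 (88.2%, against 59.3% of all tested genes). Without overlap, 2 were higher (11.8%, against 18.1% of all tested genes). Its summed level was 3818, 4127 and 3816 TPM without 4OHT and 4587, 4726 and 3834 TPM with it, with overlap. The F1 head and central stalk had a median log2 fold change of 0.18 over 5 genes. *Atp5b*, the catalytic beta subunit and the most abundant member of the complex, was at 421.8, 533.9 and 495.1 TPM without 4OHT and at 697.1, 559.3 and 449.0 TPM with it (log2 fold change 0.22). The groups overlapped, and the wells with 4OHT differed widely among themselves. Its fold change ran from 0.06 without OSKA + 4OHT replicate 1 to 0.38 without OSKA + 4OHT replicate 3. Among the peripheral stalk genes, with a median of 0.19 over 4 tested genes, *Atp5f1* was at 182.1, 160.0 and 143.2 TPM and at 219.5, 219.3 and 181.2 TPM (log2 fold change 0.35, adjusted p = 0.231, limma-trend with Benjamini-Hochberg adjustment).

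The ring of c subunits is encoded by 3 genes with the same mature protein. *Atp5g1* was at 151.5, 162.9 and 138.9 TPM without 4OHT and at 187.8, 179.7 and 171.7 TPM with it, without overlap (log2 fold change 0.25, adjusted p = 0.283, limma-trend with Benjamini-Hochberg adjustment). *Atp5g2* was at 242.1, 243.1 and 105.3 TPM and at 246.1, 206.6 and 277.3 TPM, and *Atp5g3* at 359.7, 448.2 and 383.4 TPM and at 462.3, 559.0 and 371.5 TPM. As mean shares of the sum of the 3 genes without and with 4OHT, *Atp5g1* was at 20.4% and 20.3%, *Atp5g2* at 25.8% and 27.7% and *Atp5g3* at 53.8% and 52.0%. The shares of single wells spread widely for *Atp5g2*, from 16.8% to 32.1% without 4OHT and from 21.9% to 33.8% with it. The supernumerary membrane subunits had the lowest median, 0.04 over 4 genes. *Atp5k* was at 142.0, 184.0 and 95.6 TPM and at 114.2, 115.9 and 102.6 TPM (log2 fold change -0.29), and *Atp5l* at 330.8, 350.7 and 357.9 TPM and at 332.4, 423.7 and 259.7 TPM (log2 fold change -0.06), both with overlap. Both have near-identical pseudogene transcripts, so their values are uncertain. The fold change of *Atp5k* ran from -0.54 without OSKA − 4OHT replicate 3 to -0.07 without OSKA − 4OHT replicate 2.

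Other genes of mitochondrial respiration were set beside the subunits by lists of function, which were chosen with earlier results of these data known. A pair of regulators of respiration were called higher. *Atpif1*, the inhibitor of ATP hydrolysis by complex V, was at 173.4, 195.3 and 190.2 TPM without 4OHT and at 325.9, 284.7 and 321.3 TPM with it, and it rose by a log2 fold change of 0.74 (SE 0.11, adjusted p = 0.0204, limma-trend with Benjamini-Hochberg adjustment). *Higd1a*, a protein induced by hypoxia that binds complex IV, was at 76.3, 78.6 and 87.7 TPM and at 246.1, 227.9 and 155.9 TPM, a rise of 1.35 (SE 0.20, adjusted p = 0.0176, same test). Both were higher in all 3 wells with 4OHT. The naming rule picks *Higd1a* from this list, and *Atpif1* was named outside that rule after its values were seen. Of the 7 tested genes in this list of respiration modulators, these 2 were called higher and 0 lower, where 3.52% and 1.97% of all tested genes were. The list is small and was not chosen blind to these data, so the share is a description and was not tested.

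In the TCA cycle, *Idh2*, the NADP-dependent isocitrate dehydrogenase, was called, at 33.2, 37.5 and 37.7 TPM without 4OHT and 88.1, 73.8 and 69.7 TPM with it (log2 fold change 1.08, SE 0.15, adjusted p = 0.0160, limma-trend with Benjamini-Hochberg adjustment), 1 of 20 genes tested. Of these 20, 15 were above 0, with a median of 0.14, and 6 higher and 1 lower had an unadjusted p under 0.05 by limma-trend. Among 78 mitochondrial ribosomal proteins 1, *Mrpl27*, was called higher, with 28.7 ± 3.72 TPM without 4OHT and 56.8 ± 11.6 TPM with it (SD, n = 3 each) and 0.96 as its log2 fold change, 1 of 78 against 3.52% of all tested genes. Of the 78, 65 were above 0, with a median of 0.33, and 16 higher and 1 lower had an unadjusted p under 0.05 by limma-trend. By limma-trend 0 genes were called in either direction in the other lists. These are 45 OXPHOS assembly factors (34 above 0, median 0.26, 3 with an unadjusted p under 0.05, all higher), 23 import genes (18 above 0, median 0.25, 4 with such a p, all higher), 15 genes of mitochondrial biogenesis (11 above 0, median 0.28, 1 higher and 2 lower with such a p) and 21 electron carriers and quinone-linked enzymes (14 above 0, median 0.17, 2 with such a p, both higher). Of all tested genes, 59.3% were above 0 and 14.1% had such a p and a higher level. The subunits' median of 0.23 lay within the range of these lists. Of the 12 tested mitochondrially encoded subunit genes, 6 were above 0, 0 were called and 0 had an unadjusted p under 0.05 by limma-trend, with a median of 0.01. Their summed level was between 149254 and 189311 TPM without 4OHT and between 134147 and 203318 TPM with it. A large part of the sum came from *mt-Atp8* alone. It was at 102043, 77636 and 72932 TPM without 4OHT and at 67411, 64507 and 92045 TPM with it. *mt-Nd3* was listed at 0 in every well.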

How the data were processed

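The authors prepared stranded polyA libraries from total RNA of 6 wells, sequenced 50-base single-end reads, trimmed them with Trim Galore and quantified them with Salmon against mouse transcripts. Versions and the annotation are not given in the sources used here. The deposited values are TPM per Ensembl gene and well. The authors' own columns of their edgeR comparison (fold change, average level, F statistic and p-value) were not used.

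Symbols and positions come from GENCODE M21 (GRCm38). The subunit genes, lists and motifs were chosen with earlier results of these data known. Groups were compared with limma-trend (limma 3.58.1, R 4.3.3) on log2(TPM + 0.5) over genes averaging 1 TPM or more, with Benjamini-Hochberg adjustment over all of them. A count model needs counts and was not run. Isoform shares were compared by an exact permutation test. Named genes were those called, the 2 highest, the 2 lowest and the most abundant of each complex, the isoform pairs, those listed at 0, and the extreme called gene of each list. Others are marked where they appear, and 1 gene that this rule names is not reported here. The NRF1 and YY1 motifs were shortened from longer forms after the windows were opened. Near-identical transcripts of other genes were found with BLAST 2.17.0, at 95% identity over 50% of the transcript or more. The test was checked on simulated data, but no result of that check is reported here. Alternatives were other pseudocounts, filters, scalings and variance priors, a block and leaving out each well.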

Additional observations from a re-analysis of the deposited data

How the results depend on the processing

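Of the 145 alternatives for the counts and medians of subunit genes, 128 gave a value within the allowed spread, and 17 moved. The number called higher, 1 as reported, was 2 with a pseudocount of 2 and 2 with TPM rescaled without mitochondrially encoded genes (added after seeing the data). It was 0 with no filter on low values, 0 after trimmed-mean scaling, 0 with no trend in the prior variance, and from 0 to 1 with 1 well left out. By limma-trend the number called lower was 0 throughout. The gene called without OSKA − 4OHT replicate 1 was *Ndufa4l2*, and without OSKA + 4OHT replicate 1 it was *Cox6a2*, so no fit with a well left out called *Ndufa3*. With the replicate block 0 subunit genes were called, and 47 of all genes. The correlations of same-numbered wells were 0.0235, 0.0341 and 0.0837, so the numbers were not taken to pair the wells. Trimmed-mean scaling gave 17 subunit genes without overlap in place of 26 (all genes 14.3% higher and 13.8% lower, in place of 18.1% and 10.0%), and medians of 0.10 for all subunits, 0.17 for complex I, 0.028 for complex IV and 0.062 for complex V. It also brought the share of higher calls among all genes from 64.1% to 49.2%, and quantile normalization to 49.7%. With 1 well left out, subunit genes without overlap numbered from 29 to 51 (all genes 21.5% to 27.2% higher and at most 14.0% lower) and the median of complex IV ran from 0.0905 to 0.302, the highest in both cases without OSKA + 4OHT replicate 3. Among the 33 subunit genes that the naming rule picked, the sign turned for 6. *Cox6b1* was at -0.034 after trimmed-mean scaling and *Uqcrh* at 0.031 after quantile normalization. With 1 well left out, *Atp5g2* ran from -0.0062 to 0.595, *Atp5l* from -0.237 to 0.116, *Cox4i1* from -0.269 to 0.0109, *Cox6b1* from -0.0080 to 0.164, *Sdhc* from -0.232 to 0.254 and *Uqcrh* from -0.068 to 0.060. The wells whose absence turned the sign were OSKA − 4OHT replicate 3 for *Atp5g2* and *Cox4i1*, OSKA + 4OHT replicate 3 for *Atp5l*, *Cox6b1* and *Sdhc*, OSKA − 4OHT replicate 2 for *Sdhc* and OSKA + 4OHT replicate 2 for *Uqcrh*. The cause of these moves was not tested. The unknown depth limits genes of a few TPM most.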

Other observations

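Near-identical transcripts of other genes were found for 8 of the 86 entries, namely *Atp5h*, *Atp5k*, *Atp5l*, both *Atp5o* entries, *Ndufb11*, *Ndufs3* and *Uqcrb*. Most of these copies are processed pseudogenes. Among those of *Atp5l*, *Atp5l-ps1* was at 40.1 TPM in OSKA − 4OHT replicate 2 and listed at 0 in the other wells, and *Atp5l2-ps* was at 63.9 TPM in OSKA − 4OHT replicate 3 and listed at 0 in the other wells. *Gm4045*, a further copy, was at 24.3 and 22.1 TPM in OSKA + 4OHT replicates 1 and 3 and listed at 0 elsewhere. These values were chosen for naming after they were seen. Among the subunit genes without such a copy, 64 of 75 tested were above 0, with a median of 0.25.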
